A study of Homo sapiens with 18 samples.

Results

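The genes described here are 35 genes of homologous recombination, of the Fanconi anaemia pathway and of the checkpoint that answers damaged DNA, followed in hTERT-RPE1 cells that were untreated or had been given a drug that blocks cell division. The members were chosen by gene symbol from a list, and each of the 35 symbols matched 1 row among the 57773 genes of the deposited table. RPE1 is an established human cell line that was derived from retinal pigment epithelium, carries the telomerase gene hTERT and has a nearly normal chromosome number. Polyadenylated RNA was sequenced from 6 groups of 3 libraries, which were ZM447439-treated 4N and 2N cells, cytochalasin D-treated 4N and 2N cells, and untreated 4N and 2N cells. ZM447439 inhibits the Aurora kinases, which are needed for chromosome segregation and cytokinesis, and cytochalasin D blocks actin polymerisation and with it cytokinesis. The names 2N and 4N are DNA contents, on which living cells were sorted after staining with the DNA dye Hoechst at 2 µg/mL for 60 min. The labels give ZM447439 at 2.5 µM for 24 h in the text attached to every library, the untreated and cytochalasin D ones included, and state neither dose nor duration for cytochalasin D. All cells grew in medium with 10% serum, and the series design names 3 biological replicates without saying what separated them. Because G2 cells of normal ploidy and G1 cells that have doubled their genome hold the same amount of DNA, both can be in a 4N sort.

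Homologous recombination repairs a broken or stalled chromosome by copying the intact sister chromatid, and so it works mainly in S and G2 phase. The break is sensed by the MRE11, RAD50 and NBN complex, its ends are resected by nucleases such as EXO1, and BRCA2, brought by BRCA1 and PALB2, acts on the single strand so that it can pair with the intact duplex. In the Fanconi pathway a core complex with the ubiquitin ligase FANCL and its partner enzyme UBE2T attaches ubiquitin to FANCD2 and FANCI at crosslinked DNA. The kinases ATM and ATR signal the damage to CHEK2 and CHEK1, which halt the cell cycle. Many of these genes are known as targets of the E2F transcription factors, which drive genes of S-phase entry.

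The starts of these genes were therefore read from RefSeq promoter windows of 300 bases, 250 before to 50 after each start, in the build GRCh38.p14, which is not the build of the deposited table. The windows of 31 members were held, and 4 members, RAD54B, NBN, FANCI and RMI2, had none. A core form of the E2F word was searched on either strand after the sequences had been seen. It was TTCCCGC with its close variant TTCGCGC, together with the pair of variants TTGCCGC and, differing in the middle, TTGGCGC. Any of these stood in 18 of 31 members (58.1%), and in 4169 of 27305 RefSeq genes with a window (15.3%). Among members whose level was lower by 2 or more on the log2(RPKM + 0.05) scale in cytochalasin D-treated 4N cells, the comparison described below, 11 of 13 held it (84.6%). It was held by 4 of 8 members with a difference between -2 and -1, and by 3 of 10 members above -1. These 3 were FANCC, FANCF and FANCL. The longer form with 1 more T in front (TTTCCCGC, TTTCGCGC, TTTGCCGC or TTTGGCGC) stood in 5 of 13, 1 of 8 and 1 of 10 members of the same 3 groups, and in 4.0% of all genes. Members' windows had a median GC content of 63.3%, against 58.3% in all genes, and the share of these GC-rich words was not corrected for it. All genes here means every RefSeq gene with a window, not only those tested for their level. A gene counted if any of its windows held the word.

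The sites below show the word in 8 of the 11 members with the larger falls, with 10 bases on each side. They run from 5′ to 3′ on the gene's own strand, and the capitals mark the core word, where GCGGGAA is TTCCCGC read on the other strand.
RAD51AP1, chr12:4538859-4538885, plus strand: ctggttttggGCGGGAAttgaaaccgc
FANCG, chr9:35080010-35080036, minus strand: ctcggtggaaGCGGGAAcccaggagga
BRCA1, chr17:43125395-43125421, minus strand: acggaaaagcGCGGGAAttacagataa
EXO1, chr1:241848199-241848225, plus strand: aggtcagcctTTCGCGCgctgtgtagg
FANCD2, chr3:10026425-10026451, plus strand: gtcgggcctgGCGGGAAagtcgaaaac
XRCC2, chr7:152676104-152676130, minus strand: ggcgttggtgGCGGGAAagttgagtct
BLM, chr15:90717262-90717288, plus strand: gcctgaggggGCGGGAAcagatgtccg
BRIP1, chr17:61863510-61863536, minus strand: ggggcgggagGCGGGAAttcgtctcgg

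In RAD51AP1, BRCA1, FANCG, BLM and FANCD2 the word shown began before the annotated start of the gene, 21 bases before it in RAD51AP1, 47 in BRCA1, 84 in FANCG, 74 in BLM and 2 in FANCD2. In EXO1, XRCC2 and BRIP1 it began after the start, by 5, 21 and 2 bases. UBE2T and BRCA2, which are also among the 13 with the larger falls, held no E2F core word, and FANCF, which did not fall, held 1 just after its start. The grouping depends on the 0.05 RPKM added before the log. FANCB, without the word, was at 9.03% of its untreated 4N mean and lies outside the 13, while FANCA, with it, was at 17.7% and lies inside. The 150 bases before the start of RAD51AP1, UBE2T and FANCF are given to set a member with the word beside 1 without it and beside the member that went the other way. Capitals mark the E2F core word and the CCAAT box, which is ATTGG on the other strand.
RAD51AP1, chr12:4538740-4538889, plus strand: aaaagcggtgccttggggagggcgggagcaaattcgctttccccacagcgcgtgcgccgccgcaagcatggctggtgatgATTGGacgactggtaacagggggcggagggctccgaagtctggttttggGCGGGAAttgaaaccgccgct
UBE2T, chr1:202341937-202342086, minus strand: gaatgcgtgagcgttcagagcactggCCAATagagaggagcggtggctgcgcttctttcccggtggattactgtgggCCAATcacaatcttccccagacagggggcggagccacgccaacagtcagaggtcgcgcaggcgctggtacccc
FANCF, chr11:22625824-22625973, minus strand: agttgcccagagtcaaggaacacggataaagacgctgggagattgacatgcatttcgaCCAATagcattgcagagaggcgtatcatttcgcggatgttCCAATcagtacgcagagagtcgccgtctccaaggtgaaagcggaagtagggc

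The CCAAT box stood in 16 of 31 members (51.6%) and in 39.7% of all genes, with 7 of 13, 5 of 8 and 4 of 10 in the 3 groups. A short form of the CHR word of late cell-cycle genes (TTTGAA or TTCGAA) stood in 4 of 31 members (12.9%) and in 19.5% of all genes. A word in a window is a match of letters, and binding of a factor was not measured.

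**Figure D1:**
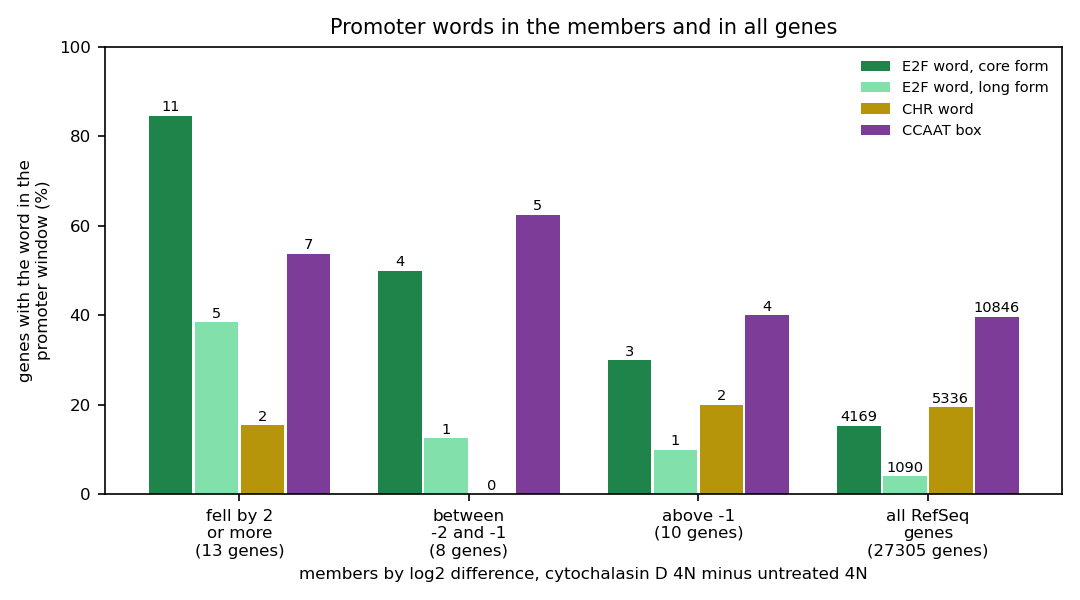
Share of genes (y axis, percent) with each word in the RefSeq promoter window, for members in 3 groups by their log2 difference between cytochalasin D 4N and untreated 4N cells, and for all RefSeq genes (x axis). Numbers over the bars count the genes with the word; the E2F core word stood in 11 of 13, 4 of 8 and 3 of 10 members, and in 15.3% of all genes.

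The deposited levels are RPKM, reads scaled to the length of a gene and the size of a library, and the low values stepped by whole reads when the length was taken as the whole genomic span of a gene with its introns. They give implied library sizes of 51135642 to 78294394 reads. Genes with long introns therefore have low RPKM here, and 22 of the 35 members averaged under 0.5 RPKM. All 35 passed the filter used for testing, a mean of 0.05 RPKM over the 18 libraries, as 24347 of 57773 genes did (42.1%). The members' values stand for 29 to 11253 implied reads per library, and counting error alone was at most 18.6% of a value by these numbers. The implied reads were whole in all 18 libraries in 18 of the 35 members. In the others they are approximate, among them FANCB, which had the lowest number and was whole in only 1 library. Differences below are on the scale log2(RPKM + 0.05), which understates those of low levels, each with its standard error (SE). Every adjusted p comes from a two-sided test by limma, adjusted by Benjamini and Hochberg (BH) for the 24347 genes tested, and passing means an adjusted p under 0.05. RPKM are shares of a library, so that fewer cells with a transcript and less of it per cell cannot be told apart. Of 10 pigment epithelium markers, 7 were tested. BEST1 had 47.1 to 141 RPKM, RDH5 2.53 to 5.98, OTX2 2.26 to 4.13 and PMEL 0.442 to 4.64. RLBP1 had 0.00162 to 0.236 RPKM, SERPINF1 0.0981 to 0.175 and MITF 0.124 to 0.168. RPE65, TYR and TTR stayed at or under 0.0356 RPKM in every library. Genes that overlap these markers were not looked up, so their levels may hold reads of other genes. With ZM447439 1 of the 7 rose in 4N cells and with cytochalasin D 5 rose, and PMEL was lower with both (-1.85 and -2.93). Of 6 blood markers, CD3E and HBB were at 0 in 15 and 17 of the 18 libraries, and PTPRC stayed at or under 0.00525 RPKM. CD14 had 0.0178 to 0.434 RPKM and rose with cytochalasin D by 2.54 in 4N cells and 1.98 in 2N cells, and with ZM447439 by 0.71 in 4N cells. The part of these shifts in the members' levels was not tested.

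In any group of 3, 1 library must lie farthest from the mean of its other two, taken here over all tested genes. These 6, called below the libraries that stood apart, were number 1 in both sorts of each drug and number 3 in both untreated sorts. The distances on the log2 scale were 0.554 against 0.447 and 0.483 in ZM447439 2N cells. They were closer in untreated 2N cells, at 0.472 against 0.421 and 0.444. Members were often at an extreme in these libraries. ZM447439 2N number 1 had the highest level of its group in 31 of 35 members, where 39.3% of all tested genes were highest in that library, and ZM447439 4N number 1 in 24 (37.5% of all genes). Cytochalasin D number 1 was highest in 26 members in the 2N sort (42.7% of all genes) and in 20 in the 4N sort (39.3%). Untreated 4N number 3 was highest in 28 members (41.8%), and untreated 2N number 3 was lowest in 20 (32.0%). The summed level of 10 G2/M markers was higher than in the other two of the group in ZM447439 2N number 1 (27.9 RPKM, against 14.1 and 12.3) and in cytochalasin D 2N number 1 (17.0 RPKM, against 9.47 and 9.13), but lower in ZM447439 4N number 1 (43.2 RPKM, against 57.6 and 61.2) and in untreated 2N number 3 (85.1 RPKM, against 118 and 117). In cytochalasin D 4N number 1 it was 25.8 RPKM, against 25.8 and 24.9, and in untreated 4N number 3 it was 325 RPKM, against 319 and 308.

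Nearly the whole set was lower with both drugs. With cytochalasin D 33 members fell and 1 rose in 4N cells against untreated 4N cells, where 60.8% of all tested genes passed, 34.2% falling and 26.7% rising. In 2N cells 33 fell and 1 rose, where 56.2% of all genes passed, 30.3% falling and 25.9% rising. With ZM447439 31 members fell and 1 rose in 4N cells (46.3% of all genes passed, 26.8% falling and 19.5% rising), and 32 fell and 1 rose in 2N cells (45.2% of all genes passed, 24.9% falling and 20.4% rising). The median log2 difference of the 35 members was -1.07 with ZM447439 and -1.66 with cytochalasin D in 4N cells, where all genes had medians of -0.03 and -0.05. In 2N cells it was -1.06 with ZM447439 and -1.56 with cytochalasin D, against -0.02 and -0.03 for all genes. There were 31 members that fell in all 4 comparisons, and comparisons that share untreated libraries are not independent. The share of all tested genes that fell in all 4 was not counted. ATM and FANCF did not pass as lower in any of the 4, and PALB2 and RAD50 missed the threshold in 1 and 2 of them. Cell-cycle markers moved beside the set: 10 G1/S markers summed to 23.0 to 34.1 RPKM with ZM447439 and 8.32 to 12.7 RPKM with cytochalasin D, against 93.4 to 101 RPKM in untreated libraries. In 4N cells the 10 G2/M markers summed to 43.2 to 61.2 RPKM with ZM447439 and 24.9 to 25.8 RPKM with cytochalasin D, against 308 to 325 RPKM in untreated cells. The part of the cells' cycle phase in the members' falls was not tested.

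**Figure D2:**
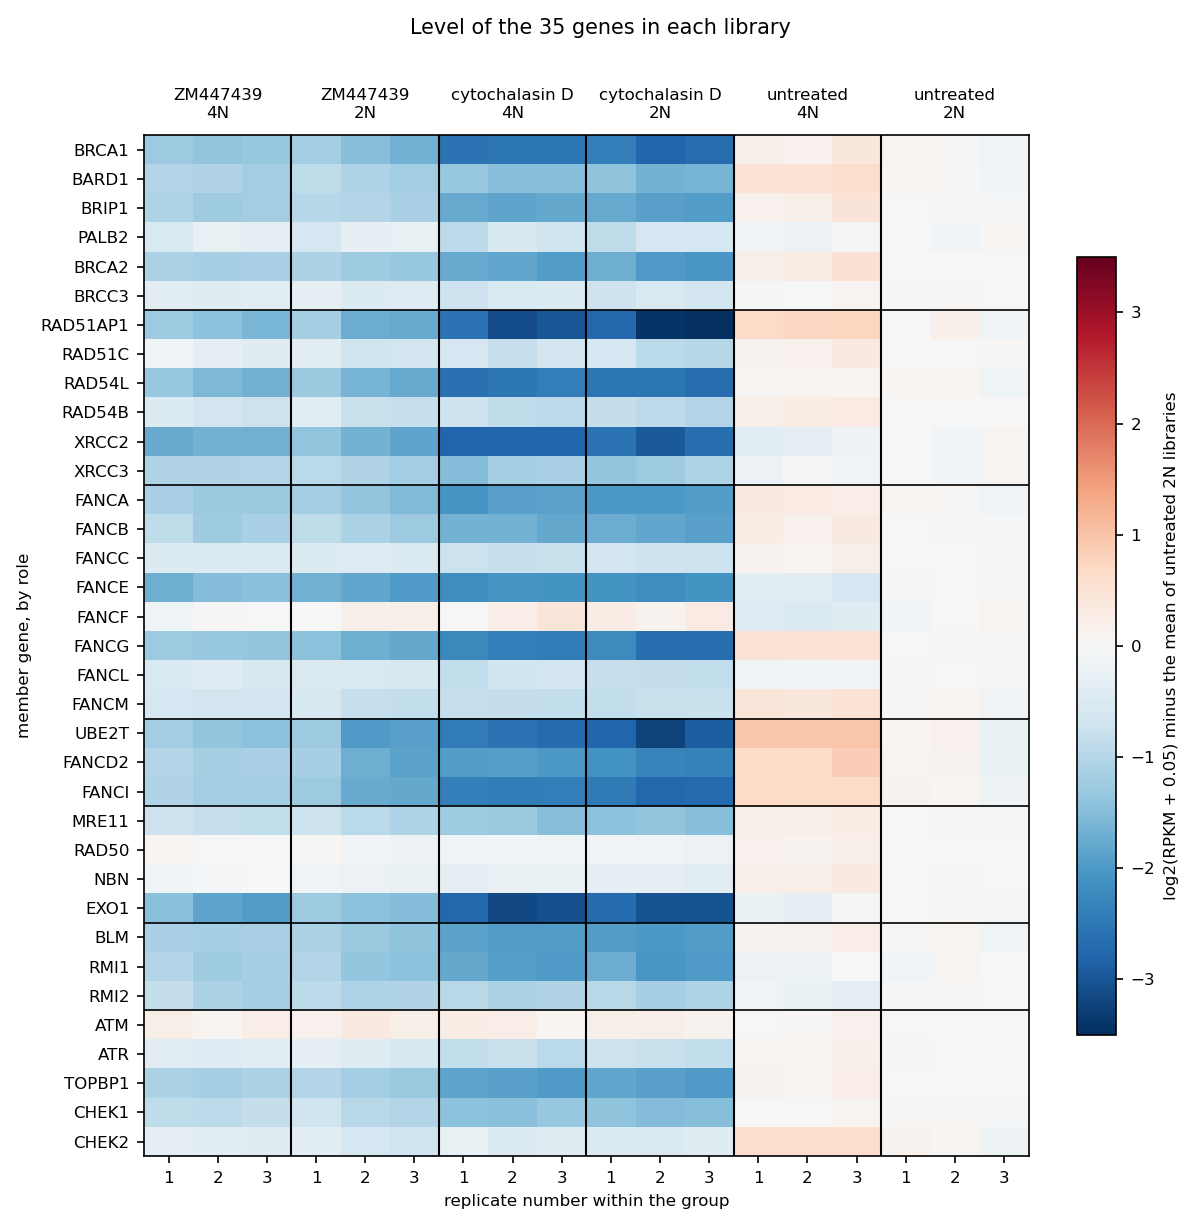
Level of each of the 35 members (rows, ordered by role) in each of the 18 libraries (columns, 3 per group), as log2(RPKM + 0.05) minus the mean of the 3 untreated 2N libraries. Blue is lower and red higher; the 12 drug libraries are blue for most members, deepest with cytochalasin D, while FANCF, RAD50 and ATM stay near white.

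The genes of 3 proteins at the centre of the Fanconi pathway, the enzyme UBE2T and its targets FANCD2 and FANCI, fell most as a group on this scale. Their median RNA change was -1.86 with ZM447439 and -3.08 with cytochalasin D in 4N cells. In 4N cells, UBE2T (ENSG00000077152) had 1.22, 1.09 and 1.05 RPKM with ZM447439 and 0.495, 0.443 and 0.410 RPKM with cytochalasin D, against 5.72, 5.70 and 5.71 RPKM in untreated cells. In 2N cells, UBE2T had 1.18, 0.693 and 0.748 RPKM with ZM447439 and 0.384, 0.266 and 0.353 RPKM with cytochalasin D, against 3.05, 3.25 and 2.49 RPKM in untreated cells. No drug library reached the lowest untreated library of its sort, and the ZM447439 2N library number 1 stood above its other two. UBE2T changed by -2.30 with ZM447439 and by -3.53 with cytochalasin D in 4N cells, and by -1.72 and -2.96 in 2N cells (SE 0.17 each; highest adjusted p of the 4 = 2.05e-06, limma with BH). In 4N cells, FANCI (ENSG00000140525) had 0.762, 0.682 and 0.688 RPKM with ZM447439 and 0.271, 0.260 and 0.263 RPKM with cytochalasin D, against 2.63, 2.58 and 2.63 RPKM in untreated cells. In 2N cells, FANCI had 0.646, 0.446 and 0.433 RPKM with ZM447439 and 0.255, 0.203 and 0.204 RPKM with cytochalasin D, against 1.77, 1.71 and 1.45 RPKM in untreated cells. The 3 cytochalasin D libraries of the 4N sort held FANCI close to 10.1% of the untreated 4N mean, the ZM447439 ones near 27.2%. The log2 differences of FANCI were -1.81 with ZM447439 and -3.08 with cytochalasin D in 4N cells, and -1.61 and -2.65 in 2N cells (SE 0.12 each). In 4N cells, FANCD2 (ENSG00000144554) had 0.226, 0.201 and 0.210 RPKM with ZM447439 and 0.0952, 0.0997 and 0.0910 RPKM with cytochalasin D, against 0.856, 0.877 and 0.977 RPKM in untreated cells. In 2N cells, FANCD2 had 0.204, 0.122 and 0.106 RPKM with ZM447439 and 0.0814, 0.0614 and 0.0598 RPKM with cytochalasin D, against 0.557, 0.567 and 0.436 RPKM in untreated cells. As for FANCI, all 6 drug libraries of each sort lay below all 3 untreated ones, with log2 differences of -1.86 with ZM447439 and -2.71 with cytochalasin D in 4N cells and -1.58 and -2.27 in 2N cells (SE 0.15 each). The kit did not mark strand, and FANCD2OS, which overlaps FANCD2 in the annotation, moved by almost as much (-1.82 with ZM447439 and -2.80 with cytochalasin D in 4N cells), so reads of these 2 genes cannot be told apart. POLG, which overlaps FANCI, changed by -0.67 and -1.05 in the same 2 comparisons.

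Of the 8 members of the core complex, which carries the ligase, 7 fell with each drug in each sort, and FANCF was the exception. In 4N cells, FANCG (ENSG00000221829) had 2.87, 2.76 and 2.71 RPKM with ZM447439 and 1.41, 1.30 and 1.23 RPKM with cytochalasin D, against 9.92, 9.78 and 9.96 RPKM in untreated cells. In 2N cells, FANCG had 2.54, 2.09 and 1.99 RPKM with ZM447439 and 1.43, 1.07 and 1.05 RPKM with cytochalasin D, against 7.10, 7.16 and 6.65 RPKM in untreated cells. FANCG, an adaptor subunit, was thus at 28.1% of the untreated mean with ZM447439 and at 13.3% with cytochalasin D in 4N cells, without overlap between groups. The log2 differences of FANCG were -1.81 with ZM447439 and -2.87 with cytochalasin D in 4N cells, and -1.64 and -2.52 in 2N cells (SE 0.10 each). In 4N cells, FANCE (ENSG00000112039) had 0.331, 0.384 and 0.402 RPKM with ZM447439 and 0.225, 0.247 and 0.241 RPKM with cytochalasin D, against 0.898, 0.901 and 0.784 RPKM in untreated cells. In 2N cells, FANCE had 0.337, 0.299 and 0.262 RPKM with ZM447439 and 0.243, 0.227 and 0.242 RPKM with cytochalasin D, against 1.14, 1.20 and 1.23 RPKM in untreated cells. FANCE, which binds FANCD2, had its larger drop in 2N cells, where it changed by -1.84 with ZM447439, the largest fall of any member there on this scale, and by -2.11 with cytochalasin D. In 4N cells it changed by -1.11 and -1.66 (SE 0.08 each). FANCA changed by -1.52 with ZM447439 and -2.22 with cytochalasin D in 4N cells, and FANCB by -1.33 and -1.96. Smaller falls were those of FANCM, the translocase that anchors the complex on DNA (-1.07 and -1.26), of FANCC (-0.63 and -0.91) and of the ligase FANCL itself (-0.38 and -0.62).

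FANCF and, further on, ATM are given in full because they did not fall, a choice made after their values were seen. FANCF (ENSG00000183161) has a single exon, so its level is per exon length. In 4N cells, FANCF had 1.89, 2.15 and 2.08 RPKM with ZM447439 and 2.11, 2.48 and 2.83 RPKM with cytochalasin D, against 1.51, 1.46 and 1.56 RPKM in untreated cells. In 2N cells, FANCF had 2.08, 2.38 and 2.44 RPKM with ZM447439 and 2.54, 2.28 and 2.56 RPKM with cytochalasin D, against 1.97, 2.07 and 2.26 RPKM in untreated cells. In 4N cells every drug library lay above the 3 untreated ones, and FANCF rose by 0.42 with ZM447439 (adjusted p = 0.00275, limma with BH) and by 0.68 with cytochalasin D (adjusted p = 2.58e-05; SE 0.10 each). In 2N cells the values were 0.13 (adjusted p = 0.313) and 0.22 (adjusted p = 0.0622), and neither passed.

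**Figure D3:**
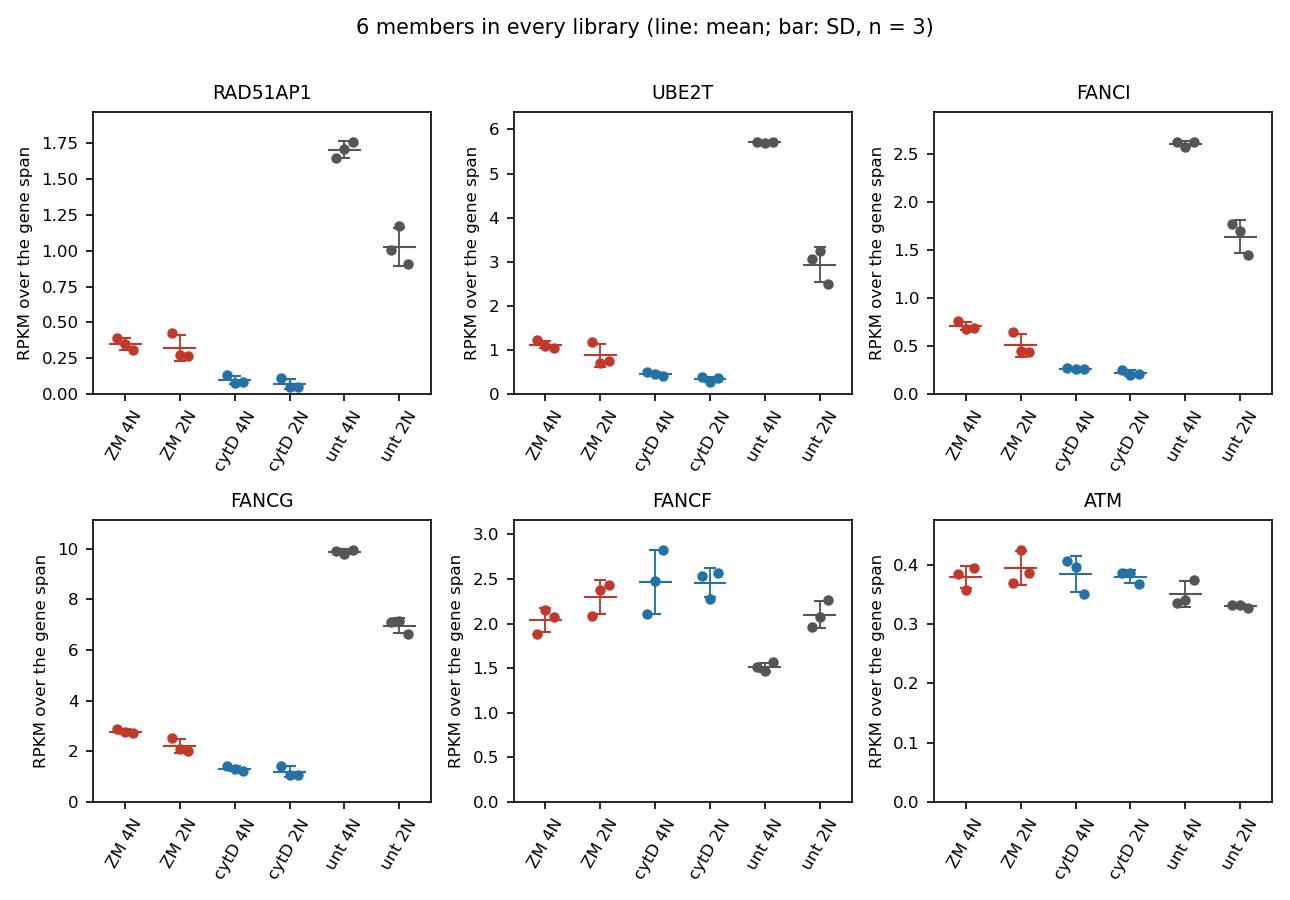
RPKM over the gene span (y axis, from 0) of 6 members in every library, with the mean and SD of each group of 3; ZM is ZM447439, cytD cytochalasin D and unt untreated. RAD51AP1, UBE2T, FANCI and FANCG are lowest with cytochalasin D and highest in untreated 4N cells, while FANCF is lowest in untreated 4N cells and ATM lies between 0.328 and 0.426 RPKM throughout.

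Among the 6 genes of strand invasion and exchange all 6 fell with both drugs in both sorts. RAD51AP1, which helps a single strand invade the intact duplex, had the largest fall of the set with cytochalasin D. In 4N cells, RAD51AP1 (ENSG00000111247) had 0.391, 0.347 and 0.304 RPKM with ZM447439 and 0.130, 0.0753 and 0.0836 RPKM with cytochalasin D, against 1.65, 1.71 and 1.76 RPKM in untreated cells. In 2N cells, RAD51AP1 had 0.428, 0.270 and 0.266 RPKM with ZM447439 and 0.110, 0.0490 and 0.0454 RPKM with cytochalasin D, against 1.00, 1.17 and 0.907 RPKM in untreated cells. The number 1 library of either drug was the highest of its group in both sorts, and no drug library overlapped the untreated ones. RAD51AP1 changed by -2.15 with ZM447439 and -3.60 with cytochalasin D in 4N cells and by -1.56 and -3.22 in 2N cells (SE 0.21 each; highest adjusted p of the 4 = 3.21e-05, limma with BH). In 4N cells, XRCC2 (ENSG00000196584) had 0.166, 0.182 and 0.179 RPKM with ZM447439 and 0.0577, 0.0565 and 0.0578 RPKM with cytochalasin D, against 0.523, 0.538 and 0.595 RPKM in untreated cells. In 2N cells, XRCC2 had 0.230, 0.185 and 0.154 RPKM with ZM447439 and 0.0733, 0.0462 and 0.0672 RPKM with cytochalasin D, against 0.688, 0.634 and 0.734 RPKM in untreated cells. XRCC2, which acts in early steps of strand exchange, had log2 differences of -1.41 with ZM447439 and -2.49 with cytochalasin D in 4N cells and of -1.63 and -2.72 in 2N cells (SE 0.11 each). RAD54L, a motor protein that moves along DNA during strand exchange, changed by -1.61 and -2.61 in 4N cells. Its relative RAD54B changed by -0.90 and -1.10, and XRCC3 and RAD51C, which form a complex, by -0.92 and -0.50 with ZM447439 and by -1.15 and -0.89 with cytochalasin D.

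In the BRCA1 and BRCA2 complexes the fall was uneven. In 4N cells, BRCA1 (ENSG00000012048) had 0.291, 0.262 and 0.278 RPKM with ZM447439 and 0.0852, 0.0916 and 0.0908 RPKM with cytochalasin D, against 0.878, 0.861 and 1.03 RPKM in untreated cells. In 2N cells, BRCA1 had 0.311, 0.238 and 0.206 RPKM with ZM447439 and 0.103, 0.0699 and 0.0774 RPKM with cytochalasin D, against 0.818, 0.787 and 0.697 RPKM in untreated cells. The log2 differences of BRCA1 were -1.57 with ZM447439 and -2.80 with cytochalasin D in 4N cells, and -1.45 and -2.62 in 2N cells (SE 0.12 each). The groups did not overlap, and BRCA1 stood at 30.0% of the untreated 4N mean with ZM447439 and at 9.67% with cytochalasin D. In 4N cells, BARD1 (ENSG00000138376) had 0.0873, 0.0858 and 0.0707 RPKM with ZM447439 and 0.0621, 0.0492 and 0.0505 RPKM with cytochalasin D, against 0.340, 0.344 and 0.377 RPKM in untreated cells. In 2N cells, BARD1 had 0.101, 0.0824 and 0.0702 RPKM with ZM447439 and 0.0566, 0.0395 and 0.0407 RPKM with cytochalasin D, against 0.242, 0.239 and 0.211 RPKM in untreated cells. BARD1, the obligate partner of BRCA1 in its ubiquitin ligase, changed by -1.62 with ZM447439 and -1.96 with cytochalasin D in 4N cells, and by -1.06 and -1.56 in 2N cells (SE 0.10 each). The helicase BRIP1 changed by -1.45 and -2.07 in 4N cells, and BRCA2 by -1.46 and -2.18. PALB2, which joins BRCA1 to BRCA2, and the deubiquitinase BRCC3 moved less. PALB2 differed by -0.25 with ZM447439 in 4N cells and did not pass (adjusted p = 0.0983, limma with BH), and changed by -0.61 with cytochalasin D. BRCC3 changed by -0.43 and -0.61.

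The nuclease EXO1 and the complex that senses breaks showed changes of different size, a difference that was not tested. In 4N cells, EXO1 (ENSG00000174371) had 0.235, 0.171 and 0.155 RPKM with ZM447439 and 0.0668, 0.0384 and 0.0440 RPKM with cytochalasin D, against 0.619, 0.600 and 0.703 RPKM in untreated cells. In 2N cells, EXO1 had 0.277, 0.240 and 0.225 RPKM with ZM447439 and 0.0724, 0.0451 and 0.0457 RPKM with cytochalasin D, against 0.742, 0.766 and 0.711 RPKM in untreated cells. EXO1 changed by -1.55 with ZM447439 and -2.80 with cytochalasin D in 4N cells and by -1.41 and -2.93 in 2N cells (SE 0.14 each), with no overlap. Of the 3 sensor subunits, MRE11, the nuclease, changed by -1.01 and -1.57 in 4N cells. NBN changed by -0.30 and -0.51, and RAD50, the tether of the ends, differed by -0.13 (adjusted p = 0.0619, not passed) and changed by -0.28. RAD50 averaged 0.818 ± 0.0359 RPKM with ZM447439 and 0.733 ± 0.0113 RPKM with cytochalasin D, against 0.899 ± 0.0238 RPKM in untreated 4N cells (SD, n = 3 each). The subunits of this single complex thus differed in size of change, from -1.57 for MRE11 to -0.28 for RAD50 with cytochalasin D, and the difference between subunits was not tested.

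The genes of the dissolvasome, in which the helicase BLM and its cofactors RMI1 and RMI2 take crossed DNA strands apart, fell in every drug comparison. Each time 3 of 3 members passed. In 4N cells, RMI1 (ENSG00000178966) had 0.475, 0.398 and 0.424 RPKM with ZM447439 and 0.261, 0.232 and 0.222 RPKM with cytochalasin D, against 0.879, 0.870 and 1.03 RPKM in untreated cells. In 2N cells, RMI1 had 0.470, 0.368 and 0.344 RPKM with ZM447439 and 0.269, 0.211 and 0.222 RPKM with cytochalasin D, against 0.951, 1.10 and 1.01 RPKM in untreated cells. The log2 differences of RMI1 were -1.02 with ZM447439 and -1.76 with cytochalasin D in 4N cells, and -1.27 and -1.92 in 2N cells (SE 0.11 each). No group of drug libraries overlapped the untreated ones for RMI1. BLM changed by -1.31 with ZM447439 and -2.08 with cytochalasin D in 4N cells, and RMI2 by -0.81 and -0.81.

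Of the checkpoint genes, 4 of 5 fell in each of the 4 comparisons and ATM did not. TOPBP1, the activator of ATR, changed by -1.26 with ZM447439 and -2.04 with cytochalasin D in 4N cells. CHEK1, the effector kinase of ATR, changed by -0.92 and -1.46, and ATR itself by -0.54 and -0.98. ACRV1, which overlaps CHEK1 and averaged 0.174 RPKM, changed by -1.35 with cytochalasin D in 4N cells. STT3A, which also overlaps it and averaged 5.13 RPKM, changed by -0.23 with ZM447439 and -0.47 with cytochalasin D there. Reads of these genes cannot be told apart. In 4N cells, CHEK2 (ENSG00000183765) had 0.174, 0.164 and 0.161 RPKM with ZM447439 and 0.185, 0.153 and 0.158 RPKM with cytochalasin D, against 0.376, 0.371 and 0.367 RPKM in untreated cells. In 2N cells, CHEK2 had 0.164, 0.136 and 0.125 RPKM with ZM447439 and 0.151, 0.147 and 0.158 RPKM with cytochalasin D, against 0.256, 0.244 and 0.197 RPKM in untreated cells. CHEK2, the effector of ATM, changed by -0.96 and -0.97 in 4N cells and by -0.56 and -0.48 in 2N cells (SE 0.09 each). In 4N cells, ATM (ENSG00000149311) had 0.385, 0.358 and 0.394 RPKM with ZM447439 and 0.407, 0.396 and 0.350 RPKM with cytochalasin D, against 0.335, 0.341 and 0.375 RPKM in untreated cells. In 2N cells, ATM had 0.370, 0.426 and 0.387 RPKM with ZM447439 and 0.387, 0.387 and 0.367 RPKM with cytochalasin D, against 0.333, 0.332 and 0.328 RPKM in untreated cells. The 4N groups overlapped for ATM, with differences of 0.10 (adjusted p = 0.221, limma with BH) and 0.12 (adjusted p = 0.129) that did not pass. In 2N cells, where neither drug's libraries overlapped the untreated ones, ATM rose by 0.22 with ZM447439 (adjusted p = 0.0118) and by 0.17 with cytochalasin D (adjusted p = 0.0302; SE 0.06 each). The rise with ZM447439 lost the threshold in 2 alternatives, among them without ZM447439 2N number 2, and that with cytochalasin D in 6, among them without any 1 of the untreated 2N libraries or without cytochalasin D 2N number 1 or 2. C11orf65, which overlaps ATM, rose in the same 2N comparisons by 0.28 (adjusted p = 0.00121, limma with BH) and 0.22 (adjusted p = 0.00484). Without strand, the rise of ATM cannot be told from that of C11orf65.

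**Figure D4:**
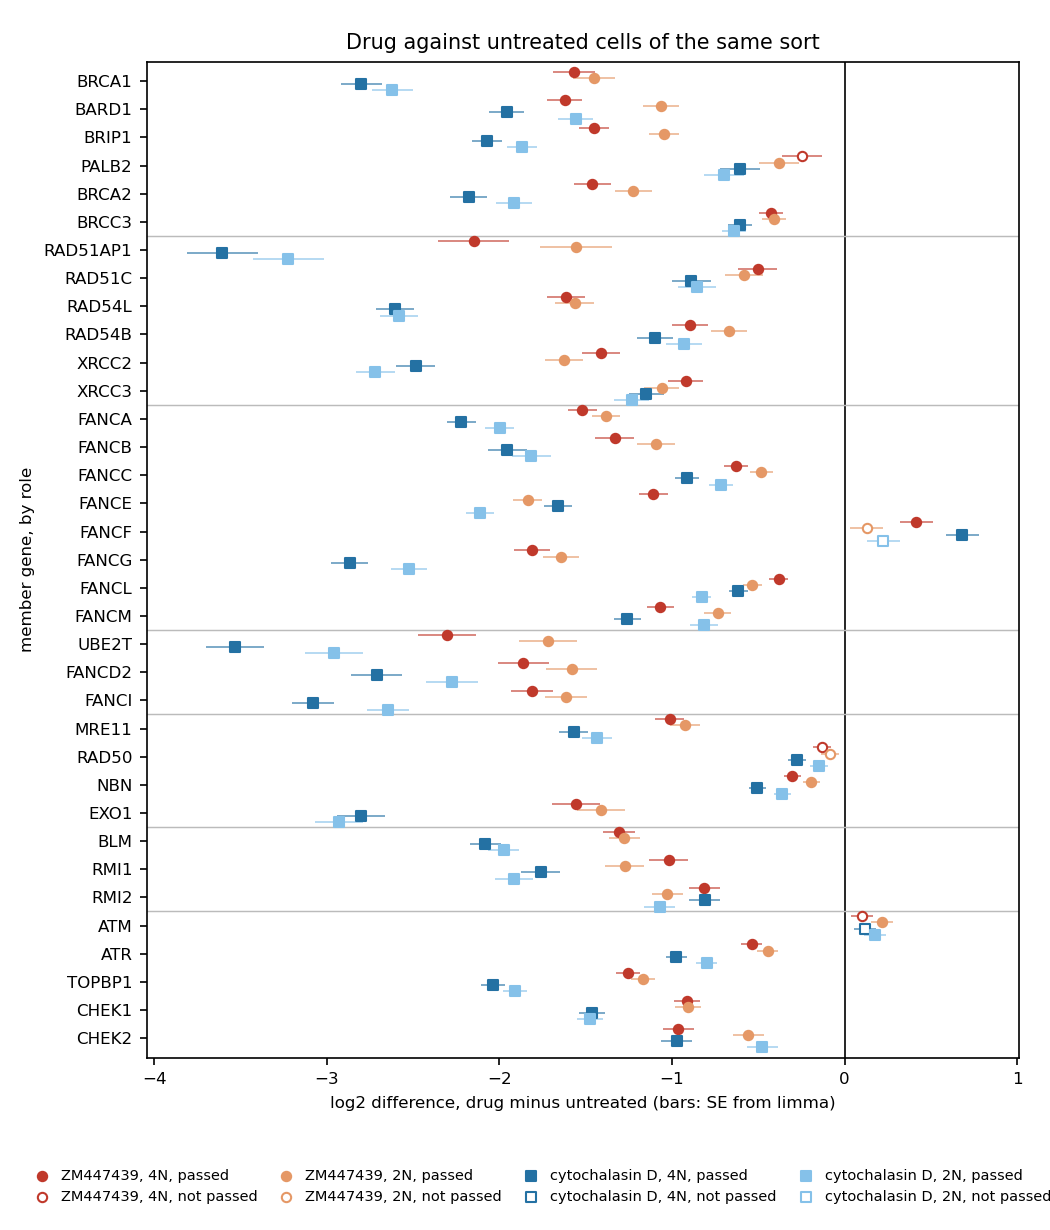
Log2 difference between drug-treated and untreated cells of the same sort (x axis, bars are the SE from limma) for each member (y axis, by role). Filled symbols passed an adjusted p of 0.05; 31 members are filled and left of 0 in all 4 comparisons, and the cytochalasin D squares lie left of the ZM447439 circles for most of them.

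Most members had higher levels with ZM447439 than with cytochalasin D. In 4N cells 27 members were higher and 1 was lower with ZM447439 (32.7% of all genes passed, 19.6% higher and 13.1% lower), with a median log2 difference of 0.55, against 0.03 over all genes. In 2N cells 25 were higher and 0 lower (27.7% of all genes passed, 16% higher and 11.7% lower), with a median of 0.51, against 0.01. The treatments differ in drug and cytochalasin D has no stated dose or time, so the values are those of these treatments as given. RAD51AP1 was higher with ZM447439 by 1.46 in 4N cells and 1.67 in 2N cells (SE 0.21 each; adjusted p = 1.31e-04 and 6.61e-05, limma with BH). EXO1 was higher by 1.25 and 1.52 (SE 0.14 each). FANCI was higher by 1.27 in 4N cells, where its 3 ZM447439 libraries held over 2 times the level of any cytochalasin D library, and UBE2T by 1.24 in 2N cells. The member that was lower was FANCF, at -0.27 in 4N cells (adjusted p = 0.0483), with overlapping groups and a call lost in 17 of the alternatives. ATM and CHEK2 differed between the drugs in 4N cells by -0.02 (SE 0.06) and 0.01 (SE 0.09), and neither they nor RMI2 passed. BRCC3, RAD54B, XRCC3 and FANCM, at 0.18 to 0.23, did not pass either.

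The mean levels followed 1 order, cytochalasin D below ZM447439 below untreated, in 33 of 35 members in 4N cells (94.3%) and in 32 of 35 in 2N cells (91.4%). Over all tested genes the same order held in 35.2% and 30.4%. The exceptions were FANCF and ATM in both sorts and CHEK2 in 2N cells.

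Without a drug, the set was only partly higher in the 4N sort. In 4N cells against 2N cells 10 members were higher and 2 lower, where 14.6% of all tested genes passed, 9.87% higher and 4.78% lower. The members' median was 0.16, against 0.02 over all genes. In the same comparison 9 of 10 G2/M markers were higher and 0 lower, with a median of 1.64. Of 10 G1/S markers 7 were lower and 0 higher, with a median of -0.81. The part of cycle phase in the members' differences between the sorts was not tested. All 3 of UBE2T, FANCD2 and FANCI rose. UBE2T was nearly the same in its 3 untreated 4N libraries, at 5.72, 5.70 and 5.71 RPKM, against 3.05, 3.25 and 2.49 RPKM in 2N libraries (log2 difference 0.96, SE 0.17, adjusted p = 0.00150, limma with BH). FANCD2 had 0.856, 0.877 and 0.977 RPKM in 4N cells, against 0.557, 0.567 and 0.436 RPKM in the 2N sort (log2 difference 0.75, SE 0.15, adjusted p = 0.00371). FANCD2OS, which overlaps FANCD2, rose by 0.68 (adjusted p = 0.00967), almost as much. FANCI rose by 0.66 (SE 0.12, adjusted p = 0.00212), and POLG, which overlaps it, by 0.24. For UBE2T, FANCD2 and FANCI each untreated 4N library lay above every 2N library.

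RAD51AP1 had 1.65, 1.71 and 1.76 RPKM in untreated 4N cells, against 1.00, 1.17 and 0.907 RPKM in the 2N sort (log2 difference 0.71, SE 0.21, adjusted p = 0.0329, limma with BH). CHEK2 was at 0.376, 0.371 and 0.367 RPKM in 4N cells, against 0.256, 0.244 and 0.197 RPKM in the 2N sort (log2 difference 0.58, SE 0.09, adjusted p = 6.19e-04). BARD1 stood at 0.340, 0.344 and 0.377 RPKM in 4N cells, against 0.242, 0.239 and 0.211 RPKM in the 2N sort (log2 difference 0.52, SE 0.10, adjusted p = 0.00315). None of the 3 overlapped between the sorts, although the call on RAD51AP1 was lost in 8 of 27 alternatives, among them without any 1 of the untreated libraries other than 2N number 2. FANCG, FANCM, FANCA and NBN rose by 0.50, 0.43, 0.28 and 0.24, the call on FANCA being lost in 12 alternatives. The 2 that fell were core complex subunits: FANCE at -0.45 (SE 0.08, adjusted p = 0.00226) and FANCF at -0.46 (SE 0.10, adjusted p = 0.00527). Subunits of 1 complex thus passed in both directions in the same cells. BRCA1, BRCA2 and BRIP1 differed by 0.25, 0.33 and 0.27 without passing, and XRCC2 and EXO1 by -0.29 and -0.20. CHEK1 averaged 1.00 ± 0.0334 RPKM in 4N cells and 0.972 ± 0.0453 RPKM in 2N cells (SD, n = 3 each; log2 difference 0.04, SE 0.08).

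With either drug few members passed between the sorts. With cytochalasin D 0 members passed between 4N and 2N cells, as did 0% of all genes by limma with BH, and at an unadjusted p under 0.05 there were 1 member and 1297 genes. The smallest p-values were those of UBE2T (log2 difference 0.39, SE 0.17, adjusted p = 0.879), FANCD2 (log2 difference 0.31, SE 0.15, adjusted p = 0.956) and NBN (log2 difference 0.09, SE 0.05, adjusted p = 0.987). UBE2T had 0.495, 0.443 and 0.410 RPKM in 4N cells and 0.384, 0.266 and 0.353 RPKM in 2N cells with cytochalasin D, so that all 3 of the 4N libraries lay above the 2N ones. With ZM447439 1 member, FANCI, passed as higher in 4N cells (4.09% of all genes passed, 2.87% higher and 1.22% lower). It had 0.762, 0.682 and 0.688 RPKM in 4N cells, against 0.646, 0.446 and 0.433 RPKM in the 2N sort (log2 difference 0.46, SE 0.12, adjusted p = 0.0476, limma with BH). This call was lost in 21 of 27 alternatives, many of them the omission of a single library. Without ZM447439 2N number 1, 7 members passed with ZM447439, and without the 6 libraries that stood apart 11 passed with ZM447439 and 4 with cytochalasin D. Leaving out the farthest library of a group narrows its spread over all genes by construction. Calls over all genes in these fits are not set beside the counts, which are therefore not read as particular to the members. Of the 10 G2/M markers 9 passed as higher in 4N cells with ZM447439 and 0 with cytochalasin D. Their summed levels were 43.2 to 61.2 RPKM in 4N cells and 12.3 to 27.9 RPKM in 2N cells with ZM447439, and 24.9 to 25.8 RPKM and 9.13 to 17.0 RPKM with cytochalasin D.

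**Figure D5:**
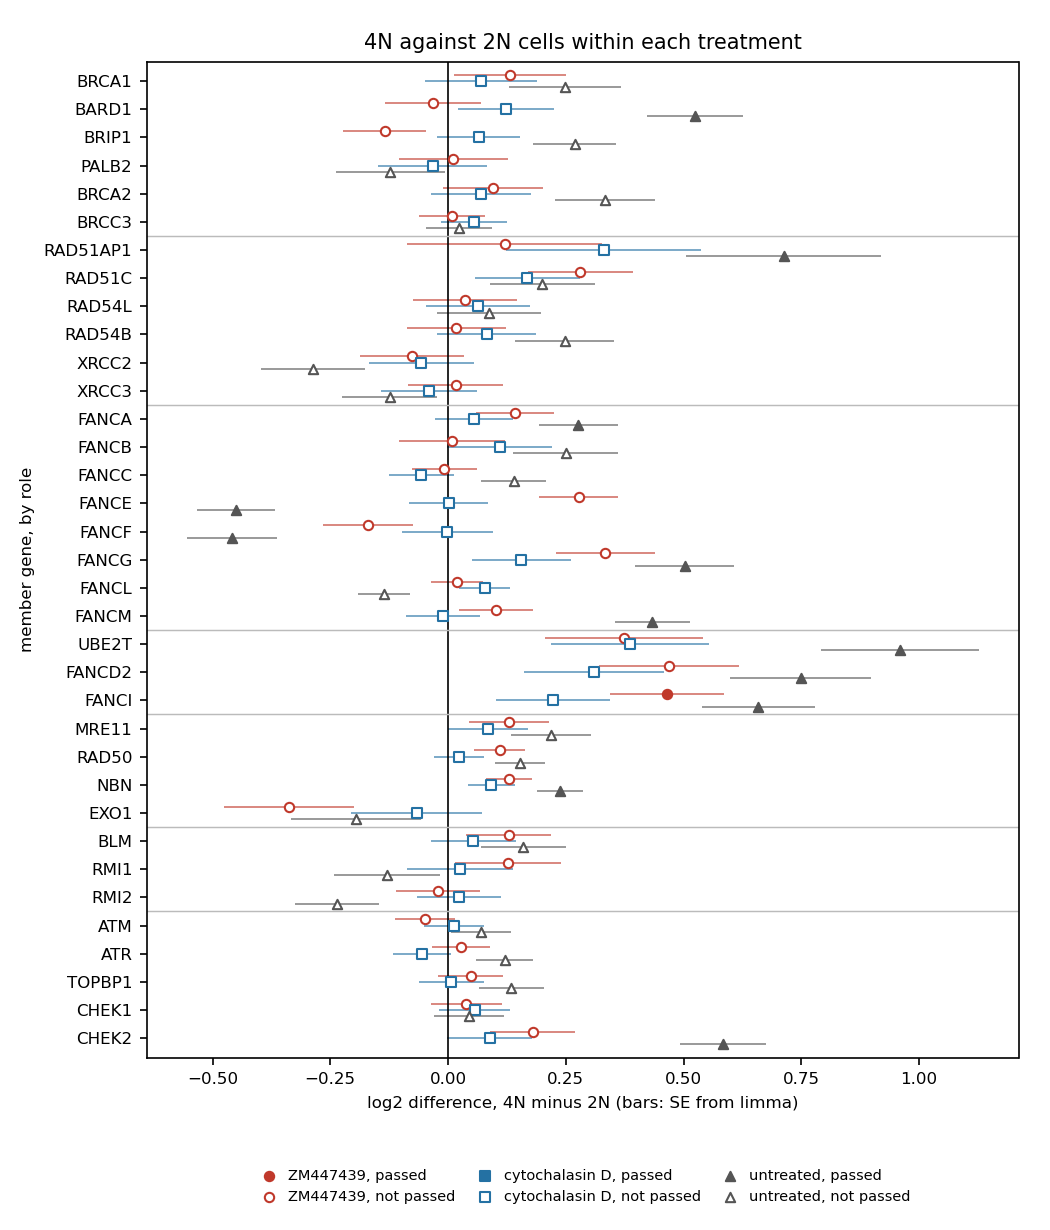
Log2 difference between 4N and 2N cells within each treatment (x axis, bars are the SE from limma) for each member (y axis, by role). Filled symbols passed an adjusted p of 0.05: 12 members in untreated cells, 1 with ZM447439 and 0 with cytochalasin D.

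Whether the drugs changed the difference between the sorts was tested as an interaction, and few members passed. Against untreated cells, ZM447439 changed it in 2 members (7.36% of all genes passed, 2.96% up and 4.41% down) and cytochalasin D in 3 (5.49% of all genes, 1.53% up and 3.96% down). FANCE passed for both drugs. It was 0.331, 0.384 and 0.402 RPKM in 4N cells and 0.337, 0.299 and 0.262 RPKM in 2N cells with ZM447439, where the 4N libraries 2 and 3 lay above and 1 within the 2N range, against 0.898, 0.901 and 0.784 RPKM and 1.14, 1.20 and 1.23 RPKM in untreated cells, where all 4N libraries lay below. The interaction was 0.73 with ZM447439 (SE 0.12, adjusted p = 0.00265, limma with BH) and 0.45 with cytochalasin D (SE 0.12, adjusted p = 0.0390). BARD1 passed with ZM447439 at -0.56 (SE 0.14, adjusted p = 0.0328). CHEK2 and FANCM passed with cytochalasin D at -0.50 (SE 0.13, adjusted p = 0.0374) and -0.44 (SE 0.11, adjusted p = 0.0335). For UBE2T the interaction was -0.59 and -0.57 (SE 0.24 each, adjusted p = 0.157 and 0.209) and did not pass. Between the drugs 0 members and 0% of all genes passed by limma with BH, with 1 member and 1266 genes at an unadjusted p under 0.05. The smallest p there was that of FANCE (log2 difference 0.28, SE 0.12, adjusted p = 0.938).

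Other genes of the same pathways, 54 in a list of which 53 were tested, fell in large part with both drugs, with smaller medians. With ZM447439 39 fell and 6 rose in 4N cells, and 33 fell and 4 rose in 2N cells, where 26.8% and 24.9% of all tested genes fell and 19.5% and 20.4% rose. With cytochalasin D 41 fell and 4 rose in 4N cells, and 36 fell and 4 rose in 2N cells, where 34.2% and 30.3% of all genes fell and 26.7% and 25.9% rose. The medians in 4N cells were -0.58 with ZM447439 and -0.78 with cytochalasin D, where those of the 35 members were -1.07 and -1.66. CLSPN, the adaptor that ATR uses to reach CHEK1, changed by -1.69 with ZM447439 and -3.36 with cytochalasin D in 4N cells. Between untreated 4N and 2N cells 12 of the 53 rose and 3 fell, among those that rose being GEN1 (0.93), a nuclease that resolves crossed strands, and SLX4 (0.78), a scaffold for other such nucleases. Over all tested genes 9.87% rose and 4.78% fell there. Genes of end joining, the route that needs no sister chromatid, numbered 18 with 15 tested. Of these 10 fell and 3 rose with ZM447439 and 11 fell and 3 rose with cytochalasin D in 4N cells, with medians of -0.48 and -0.53. PRKDC, the catalytic subunit of DNA-dependent protein kinase, changed by -0.90 and -1.74. The difference in size between these lists and the members was not tested.

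In 24 of the 35 members the annotation holds another gene on the same stretch, and reads of such pairs cannot be assigned without strand. FSBP, which overlaps RAD54B, changed by -0.91 with ZM447439 and -1.04 with cytochalasin D in 4N cells, against -0.90 and -1.10 for RAD54B. In the same 2 comparisons MTCP1, over BRCC3, changed by -0.28 and -0.43, and VRK2, over FANCL, by -0.26 and -0.44. ZNF276, over FANCA, changed by -0.66 and -0.55, and KLC1, over XRCC3, by -0.42 and -0.45. LRRC41, over RAD54L, had 0.16 and 0.09, and ANKRD49, over MRE11, -0.04 and -0.08. NPAT and C11orf65, which overlap ATM, had -0.31 and 0.09 with ZM447439 and -0.46 and 0.13 with cytochalasin D in 4N cells. In 2N cells, where ATM rose, C11orf65 rose by 0.28 with ZM447439 and 0.22 with cytochalasin D. NPAT changed there by -0.51 and -0.74. DECR1, which overlaps NBN, rose by 0.21 and 0.34 in 4N cells, where NBN fell. HSCB, which overlaps CHEK2, had -0.14 and 0.13 in 4N cells and did not pass. In 2N cells HSCB had 0.01 with ZM447439, not passing. With cytochalasin D it rose there by 0.28 (adjusted p = 5.81e-04, limma with BH), where CHEK2 fell.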

How the data were processed

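Polyadenylated RNA of 18 libraries was read with a kit that does not mark strand, per the labels' protocols. The deposited table gives RPKM by gene, made by the authors; CASAVA 1.8.2, TopHat2, edgeR and hg19 are named in the submitters' processing notes, while the program that counted reads is not stated there. Within a tolerance of 0.05 reads, 89.1% to 89.7% of values under 200 reads were whole when the gene span was the length, and 9.3% to 10.1% when exon length was. No count test was run, since the unit is RPKM.

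Genes averaging 0.05 RPKM or more were tested on log2(RPKM + 0.05) with limma 3.58.1 in R 4.3.3 (1 fit over 6 group means, trended variance, 12 residual degrees of freedom, two-sided, Benjamini-Hochberg adjustment, threshold 0.05). The fit was tested on simulated data. Tables and figures were made with Python 3.11.15, pandas 2.3.3 and matplotlib 3.10.9. Overlapping genes come from a later annotation than the authors' build. P-values measure only the spread between these libraries.

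The members, their roles and the lists were chosen with earlier results of these data known. All libraries' values were given for the members with the largest differences among those passing, up to 6 per comparison between sorts or with untreated cells and up to 3 for others, for the 3 with the smallest p where none passed, and for 1 member of a role otherwise not shown. Pseudocounts, filters, rescaling, quantile normalization, a fit on own libraries only, a replicate block and leaving out each library were tried. Leaving out the 6 libraries that stood apart was chosen after seeing the data.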

Additional observations from a re-analysis of the deposited data

Results flagged for a closer look

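In 4 members, 2 with ZM447439 and 3 with cytochalasin D, the difference between 4N and 2N cells itself changed with a drug, by the interaction term of limma with Benjamini-Hochberg adjustment. Over all tested genes 7.36% passed with ZM447439 and 5.49% with cytochalasin D, so that these counts are near the share of all genes. FANCE had interactions of 0.73 with ZM447439 and 0.45 with cytochalasin D against untreated cells, passing as lower in 4N than in 2N cells in untreated cells and not with either drug. BARD1 had -0.56 with ZM447439, and CHEK2 and FANCM had -0.50 and -0.44 with cytochalasin D, each being higher in 4N cells when untreated. The calls were lost in 17 of the alternatives for CHEK2, 16 for FANCE with cytochalasin D, 12 for FANCM and 11 for BARD1. The cause of these differences was not tested.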

How the results depend on the processing

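Of the results for single members under 27 alternatives at most, 10774 kept their side of the threshold, 191 no longer passed and 111 newly passed. Among results that passed in the reported fit or in the alternative, 0 changed direction. Where a result passed in neither, the direction was not compared. The counts of members called below are given without those of all genes under the same setting. A change common to all genes therefore cannot be told from one of the members. Between untreated sorts, the 12 calls became 19 with a pseudocount of 0.5 RPKM and 7 with a filter at 0.5 RPKM, which left 13 members to test. That filter left 12 and 13 calls with ZM447439 and cytochalasin D in 4N cells, 11 and 12 in 2N cells, and 11 and 10 between the drugs in 4N and 2N cells. Between ZM447439 sorts, the 1 call became 0 with a pseudocount of 0.5 or 0.01 RPKM, no filter, median-ratio rescaling, quantile normalization or own libraries only. The interactions of ZM447439 and cytochalasin D with the sort, at 2 and 3 calls, gave 8 and 8 with a pseudocount of 0.5 RPKM, 1 and 0 with 0.01 RPKM, and 1 and 1 both with a filter at 0.5 RPKM and with no filter. Without the 6 libraries that stood apart, calls numbered 11 between ZM447439 sorts, 4 between cytochalasin D sorts, 4 and 7 for these interactions and 2 for the interaction between the drugs. The causes were not tested.

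Leaving out 1 library at a time gave 10 to 16 calls between untreated sorts, 0 to 7 between ZM447439 sorts (7 without ZM447439 2N number 1), and 1 to 3 and 0 to 5 for the interactions with ZM447439 and cytochalasin D. It gave 32 to 33 and 34 to 35 calls with ZM447439 and cytochalasin D in 4N cells, 32 to 33 and 32 to 35 in 2N cells, and 24 to 30 and 21 to 26 between the drugs.

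With the replicate number as a block, calls numbered 17 between untreated sorts, 4 between ZM447439 sorts and 0 between cytochalasin D sorts. What a shared number stands for is not stated. Deviations of same-numbered 4N and 2N libraries correlated, across genes, at 0.05 to 0.20 with ZM447439 and 0.09 to 0.28 with cytochalasin D. Untreated, they did so at 0.04 to 0.15. For ZM447439 number 1, cytochalasin D number 1 and untreated number 3 the values were 0.20, 0.28 and 0.15. Their highest values with another number were -0.08, -0.15 and -0.07. In ZM447439 number 3, cytochalasin D number 2 and untreated numbers 1 and 2 another number correlated more. Whether same-numbered sorts came from 1 culture was not tested. Counting error limits the lowest members most, up to about 18.6% of a value for FANCB, whose implied reads were whole in only 1 library.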
